A study of Mus musculus with 12 samples.

Results

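The genes described here are 81 ion transporter and channel genes of epithelia, taken by symbol from the 26264 genes listed in each library. They are all listed members of the Slc4, Slc9, Slc12 and Slc26 transporter families, the Scnn1 sodium channel subunits, the Atp1a and Atp1b sodium pump subunits, the Fxyd pump regulators, the Clcn chloride channels and the Clca genes, together with Cftr, Ano1, Best1 and Best2. The symbol pattern also took 3 genes that name proteins binding to transporters and are no transporters themselves, Slc4a1ap, Slc9a3r1 and Slc9a3r2. The Fxyd and Clca genes likewise encode proteins that act on pumps or channels, as described below. The study compared organoids grown from the epithelium that lines the mouse uterus, with and without Esr1, the gene of estrogen receptor alpha. Each of 4 groups held 3 libraries: Esr1 knockout (KO) without estrogen, wild type (WT) without estrogen, KO with estrogen, and WT with estrogen. All were described as passage 3 organoids, and the protocol covers uteri of postnatal days 15, 30 and 60 without saying which age or animal gave which library. The dose and duration of estrogen and the way Esr1 was removed are not given in the sources used here. Nothing in the labels says that the libraries of a group came from separate cultures or animals, so p-values measure only the spread between these libraries, which may be technical.

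Epithelia that move salt and water depend on the sodium pump, which keeps intracellular sodium low and so drives the other transporters. Absorption of sodium runs through the apical sodium channel ENaC, built of the subunits encoded by Scnn1a, Scnn1b and Scnn1g. Secretion of chloride runs through basolateral uptake by the sodium-potassium-chloride cotransporter NKCC1 (Slc12a2) and apical exit through CFTR or calcium-activated channels such as ANO1, while Slc4, Slc9 and Slc26 proteins move bicarbonate, protons and other anions. In the uterus the balance of ENaC and CFTR is known for setting the volume of the luminal fluid.

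Counted reads ran from 75654191 to 108665407 a library, and the spread between replicates went well beyond counting error (chi-square over its degrees of freedom, 46.5 to 305 between libraries of a group). A principal component analysis put 94.0% of the variance on its first axis, along which KO and WT lay apart. Esr1 itself stood at 16.4 ± 0.403 CPM in untreated KO and 308 ± 50.2 CPM in untreated WT (SD, n = 3 each), and at 19.7 ± 0.510 and 318 ± 33.5 CPM with estrogen. CPM is the read count relative to library size, with library sizes scaled by TMM, the trimmed-mean method of edgeR. Beside a level, ± gives the SD over the 3 libraries of a group, and beside a log2 fold change the SE. The epithelial markers Epcam, Cdh1, Krt8, Krt18 and Krt19 summed to 2939 to 3425 CPM in untreated KO and 3495 to 4026 CPM in untreated WT, and stromal fibroblast markers to at most 4.87 CPM in any library, whereas Hoxa10 and Hoxa11, which pattern the uterus, had at most 4 reads in any group. Marker sets of other cell types moved with genotype. The 5 basal cell markers summed to 5537 to 9983 CPM in untreated KO and 2.42 to 3.49 CPM in untreated WT, and the 6 multiciliated cell markers to 629 to 959.7 and 1.00 to 1.26 CPM. The 7 listed squamous cell markers, all higher in KO, summed to 3381 to 5164 CPM in untreated KO and 22.0 to 27.3 CPM in untreated WT. The uterine gland markers Foxa2, Cxcl15, Ltf and Spink1, of which the 3 tested were all higher in KO, summed to 12089 to 17187 CPM in untreated KO and 1176 to 4327 CPM in untreated WT. The immune markers Ptprc, Cd68, Csf1r and Cd3e summed to 100.3 to 123 CPM in untreated KO and 259 to 412 CPM in untreated WT. Of 7 ionocyte markers, 4 were tested, of which 2 were lower and 1 was higher in KO in both treatments. The defining gene Foxi1 had 0 reads in all 12 libraries. The 7 summed to 18.3 to 35.1 CPM in untreated KO and 337 to 388 CPM in untreated WT. Atp6v0a4 and Atp6v0d2 made up most of the sum. The part of such cells in the results below was not tested, and in bulk RNA fewer cells of a type and less RNA per cell cannot be told apart.

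Ion transport genes differed between the genotypes in both directions, and most families held members that were higher in KO beside members that were lower. Scnn1a, Ano1, Slc12a7, Atp1b1 and Fxyd4 were higher, and Cftr, Slc12a2, Slc12a4, Scnn1b and Clcn2 were lower. Of the 81 members, 69 passed the filter on low counts and 12 did not. Without estrogen, edgeR's quasi-likelihood test called 53 of the 69, or 76.8%, at an adjusted p below 0.05, 30 higher and 23 lower in KO, where it called 71.7% of all 16465 tested genes, 37.7% higher and 34% lower. With estrogen it called 57, or 82.6%, 33 higher and 24 lower, against 70.8% of all tested genes, 36.7% higher and 34.1% lower. Passing both times with one sign were 27 higher, or 39.1% of tested members against 34.1% of all tested genes, and 23 lower, or 33.3% against 30.8%, so the shares of members called lay near those of all genes. Below, "higher" and "lower" without a treatment mean that a gene passed with and without estrogen in that direction. The median absolute log2 fold change was 1.27 without and 1.44 with estrogen for tested members, and 0.75 and 0.72 for all tested genes. Of the 69 tested members, 22 were called higher in KO with at least a 2-fold difference in both treatments, and 15 lower. The shares over all tested genes were 24.4% and 11.2%, both below the shares of members, a difference that was not tested. In 27 of the tested members all 6 KO libraries lay above all 6 WT libraries, and in 22 below them, where the shares over all tested genes were 34% and 31%. The 2 treatments may not be independent, since KO libraries of the same number deviated together across genes (correlation 0.80, 0.71 and 0.60). Passing in both treatments, or lying apart in all 6 libraries, therefore does not count as 2 independent repeats. The median signed log2 fold change was 0.35 without and 0.26 with estrogen for tested members, against 0.04 and 0.02 for all tested genes, and it did not move when the 3 genes with 0 reads in a WT group are put at their bounds. Scaling by library size alone raised genotype log2 fold changes by 0.23 without and 0.19 with estrogen at the median of all genes, and edgeR then called 35 members higher and 20 lower in each treatment. Of all called genes, 65.5% without and 63.1% with estrogen were then higher in KO, where TMM scaling gave 52.5% and 51.8%. Directions are therefore relative to the TMM scaling.

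**Figure D1:**
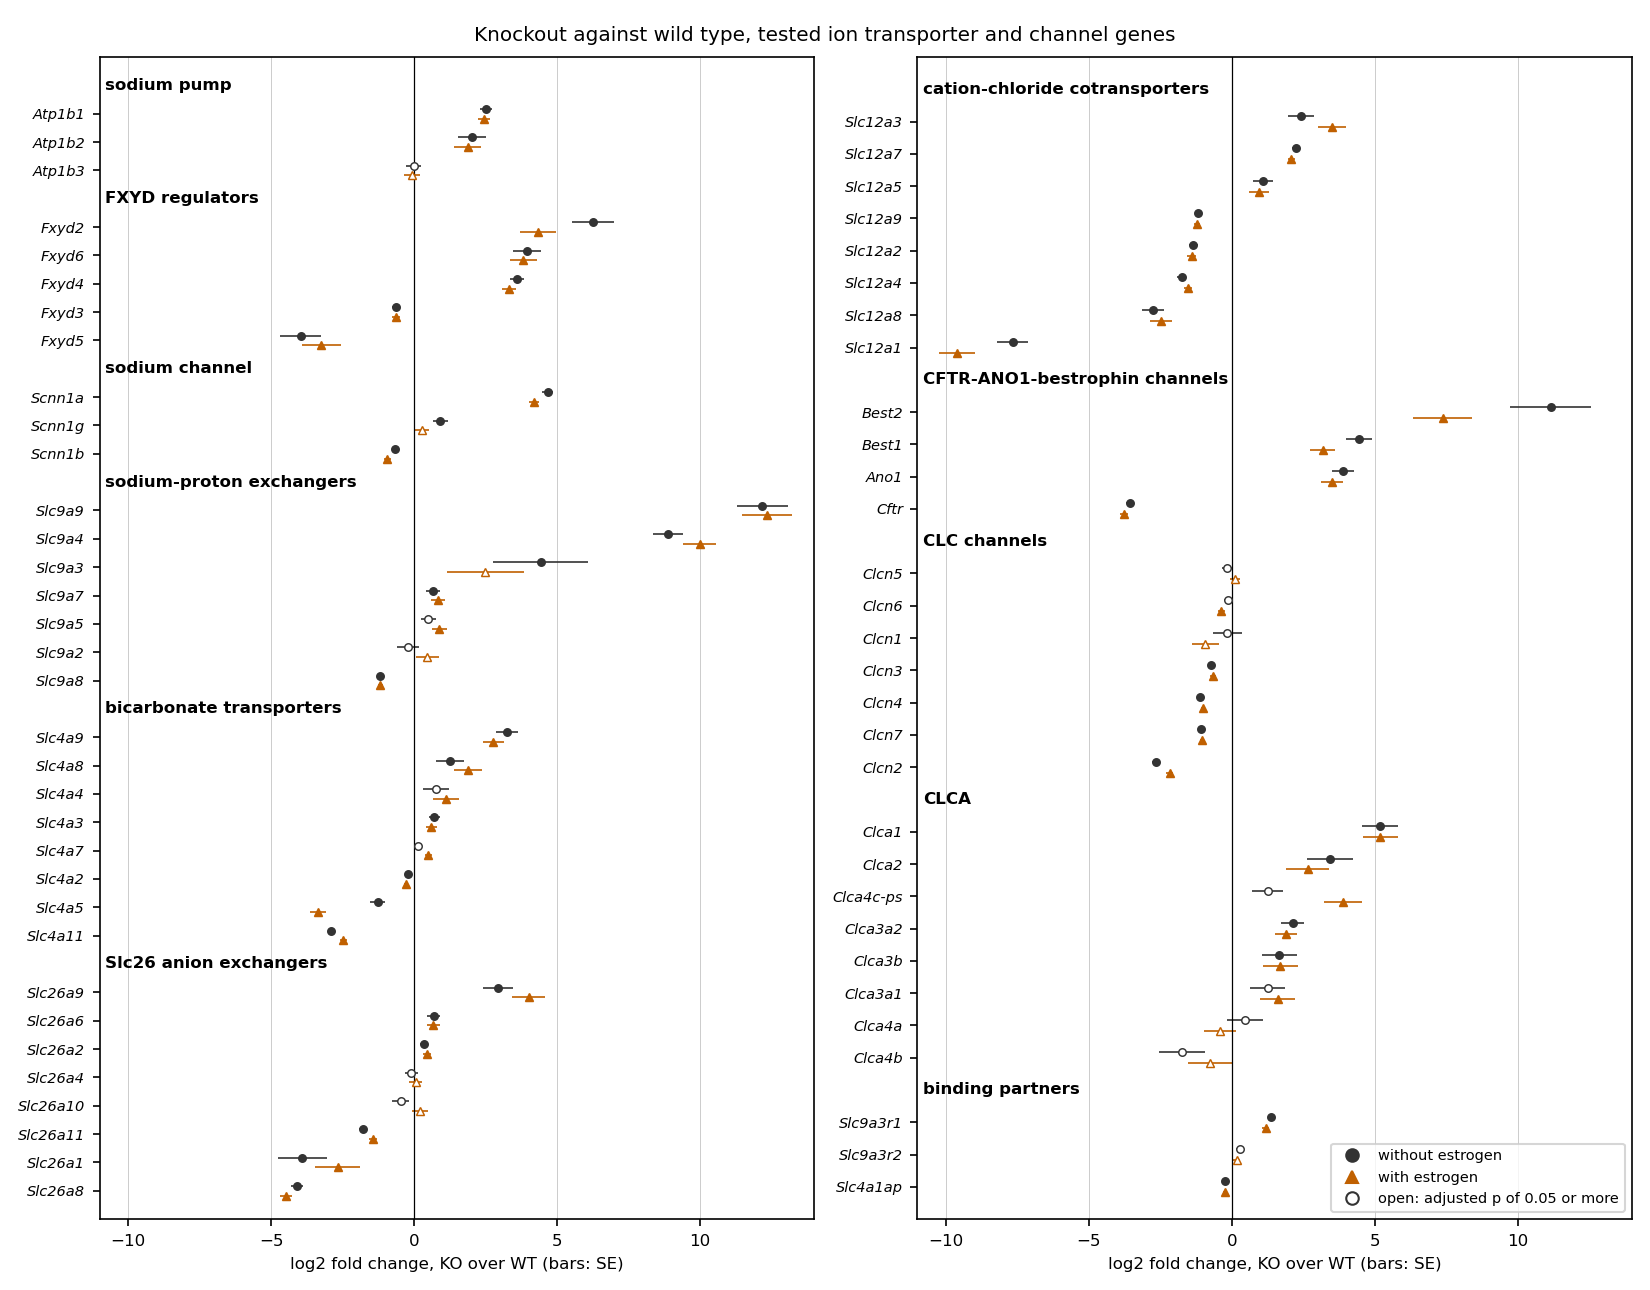
Log2 fold changes of KO over WT (x axis, with SE bars) for 64 tested members, grouped by role; dark circles are without and orange triangles with estrogen, and open symbols did not pass the adjusted p threshold. Members of 1 family lie on both sides of 0, for example Scnn1a at 4.68 and Scnn1b at -0.66, or Slc12a7 at 2.25 and Slc12a4 at -1.76 without estrogen.

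The 12 untested members were near the limit of detection. Slc26a7 had 0 reads in all 12 libraries, and a floor of 3 reads over a group allows levels of up to 0.0116 CPM in untreated KO, 0.0114 in untreated WT, 0.00902 in treated KO and 0.0112 in treated WT. Floors and counting intervals cover counting error only, since reads counted with no molecular identifier may repeat a molecule. Slc4a1, Slc4a10, Slc26a5, Atp1a4 and Atp1b4 had at most 7 reads in any group, and Fxyd1 and Fxyd7 at most 28. Slc26a3, a chloride-bicarbonate exchanger known from the colon, had 0 reads in untreated KO and 14 in untreated WT, at least 4.59-fold lower in KO, and 2 and 27 reads with estrogen.

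The submitters counted without regard to strand. In the RefSeq gene table of build GRCm38, 19 members overlapped another listed gene, of which 18 were tested and 13 called, so their reads cannot be fully told apart from those of the neighbour. Among the genes given in each library below these are Atp1b1 with Nme7, Fxyd3 with Lgi4, Slc9a4 with Gm35801, Slc26a1 with Idua and Clcn2 with Fam131a, and Slc9a9, Fxyd5, Slc12a4, Clcn4 and Clcn7 overlapped only microRNA genes. Members of the Clca cluster overlapped no other listed gene, but they are close paralogs whose reads may not be fully told apart from each other.

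Because the genotype concerns a DNA-binding receptor, the 250 bases before the start of each gene were searched for its motifs in RefSeq promoter sequences of build GRCm38.p6, in which 56 members had 70 windows. The full palindromic estrogen response element, GGTCA and TGACC 3 bases apart, was in 0 of the 70 member windows and in 0.0639% of all 32851 windows. Its half-site AGGTCA, read on both strands and contained in part in the full element, was in 15.7% of member windows, from 11 members, and in 14% of all windows. The AP-1 motif TGACTCA was in 4.29% of member windows and 4.46% of all. Promoters are shown for a called member of each of 4 roles, 2 higher and 2 lower in KO, each as the 250 bases before the start on the gene's strand, with the half-site in capitals as AGGTCA or, on the other strand, TGACCT.
Cftr, lower in KO (chr6:18170437-18170686, plus strand): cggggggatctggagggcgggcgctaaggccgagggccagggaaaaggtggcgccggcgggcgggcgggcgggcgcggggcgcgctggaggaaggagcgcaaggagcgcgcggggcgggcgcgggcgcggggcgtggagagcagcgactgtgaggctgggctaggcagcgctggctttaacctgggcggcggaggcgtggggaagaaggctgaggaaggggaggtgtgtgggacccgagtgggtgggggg
Scnn1b, lower in KO (chr7:121864788-121865037, plus strand): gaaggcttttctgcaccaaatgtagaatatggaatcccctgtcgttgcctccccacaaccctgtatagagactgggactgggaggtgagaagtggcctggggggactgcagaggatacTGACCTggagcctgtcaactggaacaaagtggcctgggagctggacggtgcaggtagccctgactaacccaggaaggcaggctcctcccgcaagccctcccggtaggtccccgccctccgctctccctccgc
Fxyd4, higher in KO (chr6:117937336-117937585, minus strand): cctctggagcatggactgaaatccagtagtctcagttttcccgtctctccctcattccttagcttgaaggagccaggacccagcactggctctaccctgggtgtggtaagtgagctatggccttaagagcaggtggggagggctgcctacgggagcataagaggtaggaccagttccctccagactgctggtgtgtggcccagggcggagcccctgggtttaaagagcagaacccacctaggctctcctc
Slc12a7, higher in KO (chr13:73763447-73763696, plus strand): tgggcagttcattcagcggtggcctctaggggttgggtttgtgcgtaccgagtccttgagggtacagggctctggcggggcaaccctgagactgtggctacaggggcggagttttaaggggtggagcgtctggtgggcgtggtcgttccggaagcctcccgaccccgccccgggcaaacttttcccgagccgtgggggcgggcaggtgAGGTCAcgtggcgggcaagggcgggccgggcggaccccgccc
The Scnn1b half-site begins 132 bases and the Slc12a7 half-site 42 bases before the start, while the Cftr and Fxyd4 windows hold neither spelling. The other Slc12a7 window, which begins at 73763410, holds 0 half-sites. Because the 4 promoters were picked as 2 higher and 2 lower, they cannot bear on a link between half-site and direction.

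The 3 subunits of the epithelial sodium channel moved in different directions. Scnn1a, the pore-forming alpha subunit, had 91.7, 77.8 and 69.0 CPM in untreated KO, against 2.84, 3.10 and 3.37 CPM in untreated WT. With estrogen Scnn1a had 83.8, 66.5 and 72.9 CPM in KO, against 3.62, 3.29 and 5.23 CPM in WT. All 6 KO libraries lay far above all 6 WT libraries. For Scnn1a edgeR gave a log2 fold change of 4.68 ± 0.192 untreated (adjusted p = 7.46e-09) and 4.2 ± 0.187 treated (adjusted p = 1.43e-08). Scnn1b, the beta subunit, moved the other way. It had 140.5, 149 and 146 CPM in untreated KO, against 227, 276 and 185 CPM in untreated WT. With estrogen Scnn1b had 141, 128 and 135 CPM in KO, against 232, 248 and 292 CPM in WT, and the genotypes did not overlap. For Scnn1b edgeR gave a log2 fold change of -0.66 ± 0.130 untreated (adjusted p = 7.88e-04) and -0.94 ± 0.130 treated (adjusted p = 6.48e-05).

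Scnn1g, the gamma subunit, passed only without estrogen. It had 34.1, 33.8 and 32.1 CPM in untreated KO, against 15.8, 25.7 and 11.7 CPM in untreated WT (log2 fold change 0.91 ± 0.258, edgeR adjusted p = 0.00810). With estrogen Scnn1g had 31.1, 28.1 and 26.3 CPM in KO, against 20.1, 19.6 and 31.6 CPM in WT, so the groups overlapped (0.26 ± 0.255, edgeR adjusted p = 0.377). For the interaction term, which tests that difference between treatments, edgeR called no member, Scnn1g included. Per kilobase of exon, Scnn1a made up 25.5% ± 3.00 of the ENaC level in untreated KO and 0.978% ± 0.266 in untreated WT (SD, n = 3 each), and 25.9% ± 1.31 and 1.07% ± 0.145 with estrogen. Scnn1b stayed the most abundant subunit per kilobase in all 4 groups, with 62.0% ± 3.02 in untreated KO and 92.9% ± 1.02 in untreated WT.

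Among 10 proteases and inhibitors known to act on ENaC, 3 were higher in KO and 6 lower. Over all tested genes the shares were 34.1% higher and 30.8% lower. Lower were Furin, which cleaves the alpha and gamma subunits in the secretory pathway (140.0 ± 2.67 against 627 ± 27.1 CPM without estrogen; larger edgeR adjusted p of both treatments = 3.36e-09), and the membrane protease Tmprss4 (289 ± 8.13 against 1002 ± 66.0 CPM; 3.90e-07 likewise). Serpine2, the protease inhibitor protease nexin-1, was higher (46.7 ± 8.0 against 2.11 ± 0.679 CPM; larger edgeR adjusted p = 2.58e-06), as was Tmprss3, at 29 reads in untreated KO against 0 in untreated WT. Prss8, encoding the channel-activating protease prostasin, did not pass in either treatment (160.0 ± 11.7 against 146 ± 0.746 CPM). Of 18 kinases, ligases and receptors that regulate ion transport, 7 were higher and 6 lower, beside those same shares over all tested genes. Sgk1, the aldosterone-induced kinase that keeps ENaC at the membrane, was lower at 53.4 ± 7.25 CPM in untreated KO and 432 ± 77.1 CPM in untreated WT (larger edgeR adjusted p = 3.17e-06). Nr3c1, the glucocorticoid receptor, was lower too (40.0 ± 0.759 against 82.6 ± 5.46 CPM; larger edgeR adjusted p = 1.84e-05). The kinase Wnk4 (38.8 ± 2.32 against 6.79 ± 1.28 CPM; larger edgeR adjusted p = 9.10e-08) and the deubiquitinase Usp2 (12.7 ± 2.85 against 0.871 ± 0.160 CPM; 1.29e-06 likewise) were higher. Nr3c2, the mineralocorticoid receptor, did not pass, at 5.29 ± 0.871 and 5.15 ± 0.50 CPM without estrogen.

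Of the 4 tested sodium pump subunits, 2 were higher in KO, the beta subunits Atp1b1 and Atp1b2. Atp1b1, the beta subunit that carries the pump to the membrane, had 417, 605 and 574 CPM in untreated KO, against 83.1, 88.1 and 106 CPM in untreated WT. With estrogen Atp1b1 had 379, 657 and 549 CPM in KO, against 96.7, 87.9 and 108 CPM in WT. The genotypes were far apart, and replicate 1 was the lowest KO library in both treatments. For Atp1b1 edgeR gave a log2 fold change of 2.53 ± 0.209 untreated (adjusted p = 1.13e-06) and 2.44 ± 0.208 treated (adjusted p = 1.58e-06).

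Atp1b3, an alternative beta subunit, did not pass in either treatment, at 282 ± 80.3 CPM in untreated KO and 286 ± 12.1 CPM in untreated WT (log2 fold change -0.02 ± 0.266) and -0.07 ± 0.266 with estrogen. The sign of the Atp1b3 difference turned with the scaling, to 0.03 under RLE size factors or DESeq2 and 0.21 under library size alone without estrogen. Atp1b2, at most 0.532 CPM in any group, was higher in KO (larger edgeR adjusted p = 0.00442). Per kilobase, Atp1b1 made up 59.3% ± 11.4 of the beta subunit level in untreated KO and 20.0% ± 2.62 in untreated WT (SD, n = 3 each), with Atp1b3 making up nearly all the rest. With estrogen the Atp1b1 share was 58.4% ± 16.5 in KO and 19.7% ± 2.22 in WT.

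All 5 tested FXYD genes, which encode small membrane proteins that tune the pump in a tissue-specific way, passed in both treatments, 3 higher and 2 lower. Fxyd4, a regulator known from the kidney collecting duct and colon, had 152, 189.7 and 193 CPM in untreated KO, against 10.0, 15.3 and 18.6 CPM in untreated WT. With estrogen Fxyd4 had 172, 180.0 and 217 CPM in KO, against 20.2, 14.1 and 22.5 CPM in WT. No WT library came near a KO library (log2 fold change 3.6 ± 0.245, edgeR adjusted p = 2.53e-07, and 3.33 ± 0.241, edgeR adjusted p = 4.81e-07). Fxyd3, found in many surface epithelia, had 113, 114 and 122 CPM in untreated KO, against 157, 209 and 175 CPM in untreated WT. With estrogen Fxyd3 had 144, 133 and 134 CPM in KO, against 247, 165 and 231 CPM in WT. It was lower in KO by a modest margin without overlap of the genotypes (-0.63 ± 0.142, edgeR adjusted p = 0.00191, and -0.64 ± 0.141, edgeR adjusted p = 0.00174).

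Fxyd5, also called dysadherin, was lower in KO, and in each treatment 1 WT library stood well above the other two. It had 3.44, 6.92 and 4.66 CPM in untreated KO, against 60.8, 60.0 and 115 CPM in untreated WT. With estrogen Fxyd5 had 3.94, 12.0 and 5.52 CPM in KO, against 145, 34.0 and 26.2 CPM in WT. All KO libraries lay below all WT libraries (log2 fold change -3.97 ± 0.709, edgeR adjusted p = 4.36e-04, and -3.25 ± 0.683 treated, edgeR adjusted p = 0.00137). The second value was -2.07 without treated WT replicate 1 and -3.85 without treated KO replicate 2. Fxyd6 was higher, with 5.63, 6.32 and 5.74 CPM in untreated KO, against 0.229, 0.303 and 0.602 CPM in untreated WT. With estrogen Fxyd6 had 5.21, 4.68 and 4.36 CPM in KO, against 0.637, 0.194 and 0.158 CPM in WT, again without overlap. Its log2 fold change was 3.96 ± 0.486 without and 3.83 ± 0.486 with estrogen (larger edgeR adjusted p = 3.24e-05), the second being 4.75 without treated WT replicate 1. Fxyd2, the gamma subunit of the renal pump, was higher at a low level. It had 1.63, 3.69 and 2.04 CPM in untreated KO, against 0.0255, 0 and 0.0695 CPM in untreated WT. With estrogen Fxyd2 had 0.877, 2.44 and 1.98 CPM in KO, against 0.0925, 0.0968 and 0.0676 CPM in WT. The groups did not overlap (log2 fold change 6.26 ± 0.722 and 4.35 ± 0.627, larger edgeR adjusted p = 8.59e-05). The first value rests on 8 reads in untreated WT and was 5.63 without untreated WT replicate 2 and 7.59 without replicate 3. Per kilobase, Fxyd4 made up 86.7% ± 0.956 of the FXYD level in untreated KO and 18.8% ± 2.17 in untreated WT, where Fxyd3 (45.5% ± 8.48) and Fxyd5 (35.4% ± 7.96) made up most of the rest. These shares depend on the merged exon lengths, 550 bases for Fxyd4 and 2894 bases for Fxyd3. Without that scaling untreated KO had 178 ± 22.9 CPM of Fxyd4 and 116 ± 4.70 CPM of Fxyd3.

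**Figure D2:**
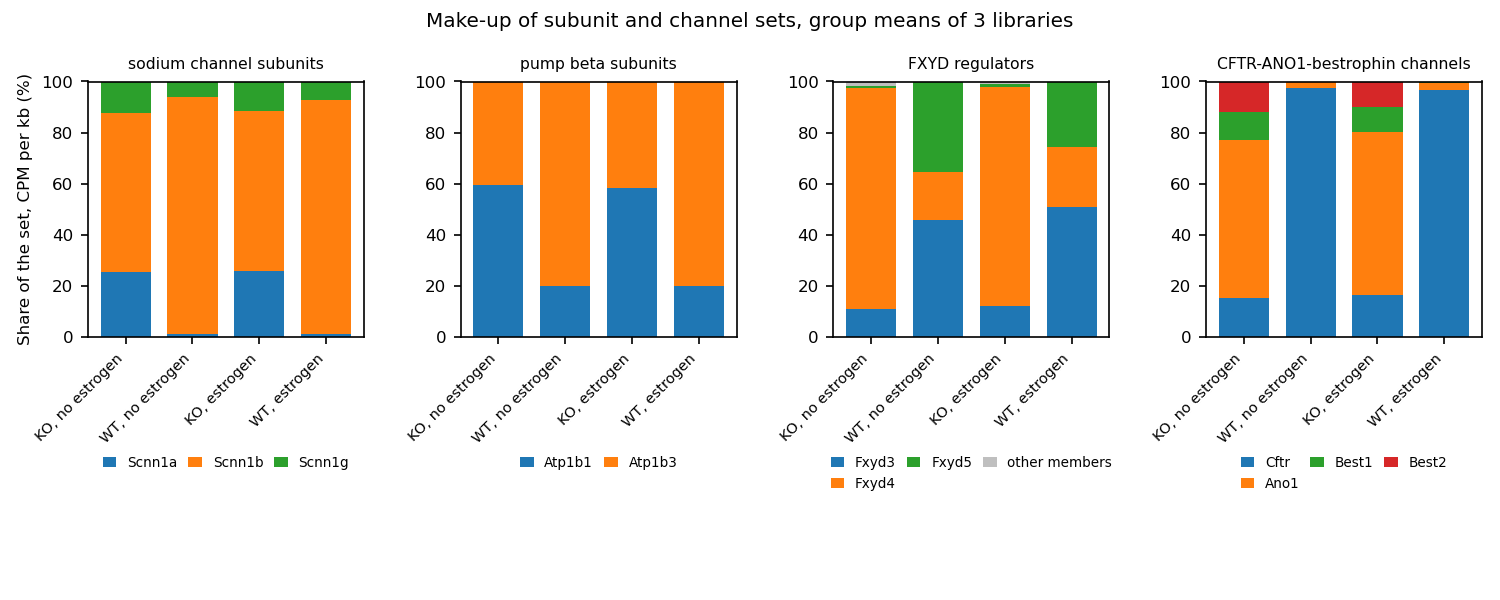
Share of each gene in the summed level per kilobase of its set (y axis, percent, group means of 3 libraries) for sodium channel subunits, pump beta subunits, FXYD regulators, and CFTR, ANO1 and the bestrophins. In each panel the leading gene or its share differs between KO and WT bars and hardly between treatments, as for Fxyd4 at 86.7% in untreated KO and 18.8% in untreated WT. The shares depend on the merged exon lengths used.

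Of the 9 sodium-proton exchangers, which export protons in return for sodium, 3 were higher and 2 lower, while 4 missed the threshold in at least 1 treatment. Slc9a8, an exchanger of the Golgi and apical membrane, was lower in KO. It had 23.9, 23.0 and 21.1 CPM in untreated KO, against 50.7, 58.4 and 47.0 CPM in untreated WT. With estrogen Slc9a8 had 24.3, 24.2 and 21.9 CPM in KO, against 53.0, 52.9 and 54.3 CPM in WT. All 6 KO libraries lay below all 6 WT libraries (log2 fold change -1.20 ± 0.0868 and -1.19 ± 0.0866, larger edgeR adjusted p = 4.46e-07).

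Slc9a4 and Slc9a9 were measured in KO and close to absent in WT. Slc9a4, known as the basolateral exchanger NHE4 of the stomach and kidney, had 38.5, 22.3 and 37.6 CPM in untreated KO, against 0.0255, 0.0809 and 0.0927 CPM in untreated WT. With estrogen Slc9a4 had 37.0, 27.0 and 30.6 CPM in KO, against 0.0823, 0 and 0 CPM in WT. The WT groups had 18 reads without and 8 reads with estrogen. For Slc9a4 edgeR gave a log2 fold change of 8.89 ± 0.523 untreated (adjusted p = 8.82e-08) and 9.99 ± 0.572 treated (adjusted p = 8.31e-08), the second being 14.5 without treated WT replicate 1, which held all 8 reads. Slc9a9, the endosomal exchanger NHE9, had 8.01, 4.58 and 6.08 CPM in untreated KO and 10.6, 3.98 and 6.37 CPM in treated KO, against 0 reads in all 6 WT libraries. KO exceeded WT at least 544-fold untreated and at least 631-fold treated (larger edgeR adjusted p = 1.36e-05). Slc9a7, of the trans-Golgi network, was higher at 6.92 ± 0.474 and 4.34 ± 1.20 CPM without estrogen (larger edgeR adjusted p = 0.0303). Its call was lost without untreated WT replicate 1 or 2 or untreated KO replicate 2 or 3 (edgeR adjusted p = 0.0697 to 0.112). Slc9a3, the apical exchanger NHE3 of gut and kidney, had 0.216, 0.114 and 0 CPM in untreated KO, against 0.0127, 0 and 0 CPM in untreated WT. That is 28 reads in untreated KO and 1 in untreated WT, a ratio of 28.5 with an exact 95% counting interval of 4.70 to 1163 that covers counting error only, and the libraries overlapped. The untreated log2 fold change of Slc9a3 was 4.42 ± 1.66 (edgeR adjusted p = 0.0323). It was 3.50 without untreated KO replicate 1, 5.01 without untreated KO replicate 3 and 6.39 without untreated WT replicate 1. The call was lost when any untreated library other than KO replicate 3 was left out (edgeR adjusted p = 0.0538 to 0.121). With estrogen Slc9a3 had 30 reads in KO and 4 in WT and did not pass (2.50 ± 1.34, edgeR adjusted p = 0.116), except with a replicate block shared by all groups (2.74, edgeR adjusted p = 0.0307).

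The scaffold Slc9a3r1, or NHERF1, which ties NHE3, CFTR and other apical proteins to ezrin, was higher in KO. It had 240.1, 218 and 206 CPM in untreated KO, against 88.2, 84.2 and 86.0 CPM in untreated WT. With estrogen Slc9a3r1 had 243, 178 and 181 CPM in KO, against 86.0, 93.4 and 86.2 CPM in WT, and every KO library lay above every WT library (log2 fold change 1.36 ± 0.113 and 1.18 ± 0.112, larger edgeR adjusted p = 3.28e-06). Slc4a1ap, an adaptor named for its binding to the red cell anion exchanger, was slightly lower. It had 27.1, 26.9 and 25.7 CPM in untreated KO, against 32.2, 31.9 and 30.8 CPM in untreated WT. With estrogen Slc4a1ap had 27.5, 25.5 and 25.6 CPM in KO, against 29.4, 31.5 and 31.4 CPM in WT. The genotypes did not overlap (log2 fold change -0.25 ± 0.0614 and -0.23 ± 0.0614, larger edgeR adjusted p = 0.00535), but the call was lost under library size alone (-0.03 and -0.05, edgeR adjusted p = 0.729 and 0.553). Of 7 tested scaffolds outside the set, 1 was higher and 4 were lower, where the shares over all tested genes were 34.1% higher and 30.8% lower. Lower were Ahcyl2, a homologue of the transporter regulator IRBIT (138 ± 14.5 against 333 ± 74.7 CPM without estrogen; larger edgeR adjusted p = 5.43e-05), and Ostm1, the beta subunit of the lysosomal exchanger ClC-7 (29.1 ± 1.43 against 53.9 ± 5.95 CPM; 5.79e-05 likewise). Tesc, a calcineurin-like calcium-binding protein, was higher at 0.871 ± 0.257 and 0.383 ± 0.0123 CPM.

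Among 8 tested bicarbonate transporters of the Slc4 family, 3 were higher and 3 lower, and the other 2 missed the threshold in at least 1 treatment. Slc4a7, the sodium-bicarbonate cotransporter NBCn1, had 96.2, 95.3 and 105 CPM in untreated KO, against 96.8, 78.6 and 91.9 CPM in untreated WT, which overlapped (log2 fold change 0.15 ± 0.117, edgeR adjusted p = 0.275, called only under library size alone at 0.0124). With estrogen Slc4a7 had 95.3, 122 and 116 CPM in KO, against 78.0, 88.4 and 68.4 CPM in WT, where KO lay above WT (0.50 ± 0.118, edgeR adjusted p = 0.00263). Slc4a2, the widespread chloride-bicarbonate exchanger AE2, had 49.8, 51.2 and 51.9 CPM in untreated KO, against 62.4, 61.5 and 52.6 CPM in untreated WT. With estrogen Slc4a2 had 49.0, 51.6 and 50.6 CPM in KO, against 57.4, 62.3 and 64.4 CPM in WT. KO lay below WT, though narrowly so beside untreated WT replicate 3 (log2 fold change -0.21 ± 0.0725, edgeR adjusted p = 0.0233, and -0.28 ± 0.0725, edgeR adjusted p = 0.00447). The Slc4a2 call was lost under library size alone, where the change without estrogen turned to 0.02 (edgeR adjusted p = 0.829), under DESeq2 (0.0792) and without untreated WT replicate 1 or 2 or untreated KO replicate 1 or 2 (edgeR adjusted p = 0.0519 to 0.10).

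Slc4a11, a proton-permeable relative known from the corneal endothelium, was lower in KO. It had 4.70, 3.80 and 3.68 CPM in untreated KO, against 29.7, 29.8 and 31.2 CPM in untreated WT. With estrogen Slc4a11 had 5.05, 6.23 and 4.99 CPM in KO, against 32.1, 29.2 and 29.3 CPM in WT. Replicates were tight and the genotypes far apart (log2 fold change -2.90 ± 0.122, edgeR adjusted p = 8.36e-09, and -2.48 ± 0.119, edgeR adjusted p = 2.25e-08). Slc4a9, the anion exchanger AE4, was higher at low levels. It had 1.49, 1.67 and 1.70 CPM in untreated KO, against 0.178, 0.233 and 0.0927 CPM in untreated WT. With estrogen Slc4a9 had 1.57, 1.65 and 1.54 CPM in KO, against 0.123, 0.339 and 0.237 CPM in WT. The groups did not overlap (log2 fold change 3.25 ± 0.377 and 2.77 ± 0.365, larger edgeR adjusted p = 4.23e-05). Slc4a5, the electrogenic sodium-bicarbonate cotransporter NBCe2, was lower. It had 0.337, 0.388 and 0.315 CPM in untreated KO, against 0.892, 0.970 and 0.649 CPM in untreated WT. With estrogen Slc4a5 had 0.129, 0.153 and 0.133 CPM in KO, against 1.18, 1.26 and 1.84 CPM in WT. The gap was wider with estrogen (log2 fold change -3.35 ± 0.283, edgeR adjusted p = 1.34e-06) than without (-1.27 ± 0.263, edgeR adjusted p = 0.00115), a difference taken up with the interaction below. Slc4a8 and Slc4a3, at most 7.79 and 5.25 CPM in any group, were higher, with larger edgeR adjusted p of 0.0357 and 0.0176. Slc4a8 lost its untreated call without untreated WT replicate 1 or 2 or untreated KO replicate 2 or 3 (edgeR adjusted p = 0.0559 to 0.108), and also with a replicate block shared by all groups (log2 fold change 1.22, edgeR adjusted p = 0.0644). Slc4a3 lost its treated call without treated WT replicate 2 or treated KO replicate 1 or 2 (0.0514 to 0.0708).

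The Slc26 anion exchangers were also split, with 3 of 8 tested members higher and 3 lower. Slc26a4, the chloride-iodide-bicarbonate exchanger pendrin, did not pass in either treatment. It had 31.4, 46.0 and 38.6 CPM in untreated KO, against 39.0, 43.1 and 42.3 CPM in untreated WT. With estrogen Slc26a4 had 31.0, 63.4 and 35.1 CPM in KO, against 38.9, 45.8 and 40.0 CPM in WT. The KO libraries spread around the WT range, and replicate 2 was the highest KO library in both treatments (log2 fold change -0.10 ± 0.232, edgeR adjusted p = 0.705, and 0.05 ± 0.231, edgeR adjusted p = 0.842). Slc26a2, a sulfate transporter, had 13.2, 14.1 and 15.7 CPM in untreated KO, against 10.9, 13.1 and 9.77 CPM in untreated WT. With estrogen Slc26a2 had 14.7, 19.5 and 16.9 CPM in KO, against 11.7, 11.6 and 14.1 CPM in WT. KO lay narrowly above WT in each treatment, but the 6 KO and 6 WT libraries overlapped (log2 fold change 0.35 ± 0.142, edgeR adjusted p = 0.0464, and 0.45 ± 0.142, edgeR adjusted p = 0.0145). This call was lost without untreated WT replicate 1 or 3, untreated KO replicate 2 or 3, treated WT replicate 1 or 2, or treated KO replicate 2 or 3 (edgeR adjusted p = 0.0532 to 0.161).

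Slc26a9, a chloride channel-like member of airway and stomach epithelium, was higher in KO. It had 9.90, 13.7 and 9.55 CPM in untreated KO, against 1.49, 0.516 and 2.35 CPM in untreated WT. With estrogen Slc26a9 had 10.5, 12.1 and 10.1 CPM in KO, against 1.07, 0.726 and 0.225 CPM in WT. The KO libraries were alike and the WT libraries low and scattered (log2 fold change 2.93 ± 0.539, edgeR adjusted p = 5.14e-04, and 4.01 ± 0.572, edgeR adjusted p = 8.39e-05). Slc26a8, known from sperm, was lower. It had 0.457, 0.400 and 0.360 CPM in untreated KO, against 7.38, 7.37 and 5.93 CPM in untreated WT. With estrogen Slc26a8 had 0.267, 0.289 and 0.427 CPM in KO, against 7.06, 7.67 and 7.12 CPM in WT. No library crossed between the genotypes (log2 fold change -4.08 ± 0.209, edgeR adjusted p = 2.87e-08, and -4.47 ± 0.212, edgeR adjusted p = 2.04e-08). Slc26a1, a sulfate and oxalate exchanger, was lower on average, with WT libraries far apart from each other. It had 0.889, 1.04 and 0.743 CPM in untreated KO, against 11.9, 5.90 and 22.3 CPM in untreated WT. With estrogen Slc26a1 had 0.80, 2.20 and 0.835 CPM in KO, against 17.5, 5.53 and 1.51 CPM in WT, where the groups overlapped. For Slc26a1 edgeR gave a log2 fold change of -3.90 ± 0.846 untreated (adjusted p = 0.00165) and -2.68 ± 0.797 treated (adjusted p = 0.0110). The second call was lost without treated WT replicate 1 (-1.46, edgeR adjusted p = 0.0714), and its value was -3.32 without treated KO replicate 2. Slc26a11, a sulfate transporter, was lower at 6.0 ± 0.717 CPM in untreated KO and 20.7 ± 2.23 CPM in untreated WT (larger edgeR adjusted p = 3.01e-06). Slc26a6, a chloride-bicarbonate and oxalate exchanger, was higher at 2.06 ± 0.260 and 1.29 ± 0.221 CPM (larger edgeR adjusted p = 0.0186), and lost its call without untreated WT replicate 3, untreated KO replicate 1, treated WT replicate 3 or treated KO replicate 1 (edgeR adjusted p = 0.0611 to 0.0867).

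The highest WT libraries were the same in several genes. Untreated WT replicate 3 and treated WT replicate 1 were the highest of their groups for Slc26a1, Slc26a9, Fxyd5 and Fxyd6, among others. The same held for Clca1, Clca3a2 and Clca3b below, but not for all members, since Cftr was highest in other WT libraries. Across all tested genes these 2 libraries deviated together from their group means (correlation 0.59). No label or header sets those libraries apart.

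All 9 Slc12 genes passed in both treatments, 3 higher and 6 lower. Most of this family encodes cation-chloride cotransporters, which move chloride together with sodium, potassium or both. Slc12a2, or NKCC1, which loads secretory cells with chloride, had 219.7, 297 and 234 CPM in untreated KO, against 701, 606 and 614 CPM in untreated WT. With estrogen Slc12a2 had 211, 289 and 219 CPM in KO, against 550.3, 727 and 634 CPM in WT. Every KO library lay below every WT library. For Slc12a2 edgeR gave a log2 fold change of -1.35 ± 0.157 untreated (adjusted p = 1.45e-05) and -1.41 ± 0.157 treated (adjusted p = 1.14e-05). Slc12a1, the renal isoform NKCC2, was measured in WT and close to absent in KO. It had 0, 0.0685 and 0.0450 CPM in untreated KO, against 8.36, 8.46 and 7.33 CPM in untreated WT. With estrogen Slc12a1 had 0.0172, 0 and 0 CPM in KO, against 7.03, 5.25 and 4.94 CPM in WT. The KO groups held 10 reads without and 2 reads with estrogen. Without estrogen the log2 fold change was -7.66 ± 0.538 (edgeR adjusted p = 2.89e-07), or -8.36 without untreated KO replicate 2. With estrogen the ratio of WT over KO was 963, with an exact 95% counting interval of 266 to 7959.7 (edgeR adjusted p = 2.29e-07), and treated KO replicate 1 held both reads. Slc12a3, the thiazide-sensitive sodium-chloride cotransporter, was higher at 0.531 ± 0.0128 and 0.0972 ± 0.0213 CPM without estrogen (larger edgeR adjusted p = 5.25e-04), with a treated log2 fold change of 3.50 that was 2.91 without treated KO replicate 1.

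The potassium-chloride cotransporters, which let chloride leave the cell, changed in make-up. Slc12a4, or KCC1, had 27.4, 21.5 and 21.7 CPM in untreated KO, against 80.9, 68.5 and 89.1 CPM in untreated WT. With estrogen Slc12a4 had 29.5, 22.0 and 25.9 CPM in KO, against 83.4, 76.2 and 64.9 CPM in WT. It was lower in every KO library (log2 fold change -1.76 ± 0.148 and -1.54 ± 0.147, larger edgeR adjusted p = 3.49e-06). Slc12a7, or KCC4, moved the other way. It had 71.2, 84.0 and 81.4 CPM in untreated KO, against 15.9, 15.6 and 18.1 CPM in untreated WT. With estrogen Slc12a7 had 59.9, 85.3 and 82.5 CPM in KO, against 19.4, 17.2 and 17.1 CPM in WT. It was higher in every KO library (log2 fold change 2.25 ± 0.133, edgeR adjusted p = 7.91e-08, and 2.08 ± 0.132, edgeR adjusted p = 1.52e-07). The neuronal KCC2 gene Slc12a5, at most 0.650 CPM in any group, was called higher (larger edgeR adjusted p = 0.0295) and lost the call without untreated WT replicate 1 or 2, untreated KO replicate 1, treated WT replicate 1 or 2, or treated KO replicate 1 or 3 (0.0514 to 0.101). Per kilobase, Slc12a7 made up 58.0% ± 3.70 of the potassium-chloride cotransporter level in untreated KO and 9.95% ± 0.479 in untreated WT, and Slc12a4 23.5% ± 3.99 and 64.3% ± 2.87. Slc12a8, a divergent member, was lower. It had 0.385, 1.07 and 0.563 CPM in untreated KO, against 4.57, 3.66 and 5.58 CPM in untreated WT. With estrogen Slc12a8 had 0.525, 0.965 and 0.437 CPM in KO, against 3.95, 3.41 and 3.29 CPM in WT. The genotypes did not overlap, and replicate 2 was the highest KO library in both treatments (log2 fold change -2.77 ± 0.392 and -2.46 ± 0.387, larger edgeR adjusted p = 1.61e-04). Slc12a9, a divergent member too, was lower at 9.19 ± 0.486 and 21.1 ± 1.65 CPM (larger edgeR adjusted p = 1.44e-06).

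Among the anion channel genes Cftr, Ano1, Best1 and Best2, Cftr was lower in KO and Ano1, Best1 and Best2 were higher. Cftr, the cyclic AMP-gated chloride and bicarbonate channel, had 9.63, 9.61 and 11.2 CPM in untreated KO, against 113, 133 and 111 CPM in untreated WT. With estrogen Cftr had 8.32, 12.0 and 10.9 CPM in KO, against 139.6, 134 and 152 CPM in WT. The highest KO library, at 12.0 CPM, lay far below the lowest WT library, at 111 CPM. For Cftr edgeR gave a log2 fold change of -3.56 ± 0.140 untreated (adjusted p = 6.07e-09) and -3.77 ± 0.141 treated (adjusted p = 5.03e-09). Ano1, the calcium-activated chloride channel, moved the other way. It had 41.5, 21.3 and 32.2 CPM in untreated KO, against 1.85, 1.51 and 3.12 CPM in untreated WT. With estrogen Ano1 had 45.4, 20.1 and 32.8 CPM in KO, against 3.18, 3.18 and 2.28 CPM in WT. The genotypes were well apart, and in both treatments replicate 1 was the highest and replicate 2 the lowest KO library. For Ano1 edgeR gave a log2 fold change of 3.88 ± 0.386 untreated (adjusted p = 4.80e-06) and 3.51 ± 0.377 treated (adjusted p = 9.64e-06).

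The bestrophins, a separate family of calcium-activated anion channels, were higher in KO at low levels. Best1 had 1.50, 2.87 and 2.67 CPM in untreated KO, against 0.0764, 0.0809 and 0.162 CPM in untreated WT. With estrogen Best1 had 1.02, 2.74 and 2.12 CPM in KO, against 0.226, 0.242 and 0.180 CPM in WT. The groups did not overlap (log2 fold change 4.45 ± 0.470 and 3.17 ± 0.431, larger edgeR adjusted p = 5.42e-05). Best2, known from goblet cells of the colon and from the ciliary body, had 4.83, 1.51 and 2.78 CPM in untreated KO, against 0 reads in all 3 untreated WT libraries. It was at least 265-fold higher in untreated KO (edgeR adjusted p = 9.39e-05). With estrogen Best2 had 4.87, 1.18 and 1.94 CPM in KO, against 0.0411, 0 and 0 CPM in WT (log2 fold change 7.37 ± 1.03, edgeR adjusted p = 1.77e-04). Best2 was highest in replicate 1 and lowest in replicate 2 of KO, like Ano1, whereas Best1 was lowest in replicate 1. All 4 reads of treated WT lay in replicate 1, without which the fitted log2 fold change was 10.96, and it was 6.60 without treated KO replicate 1. Per kilobase, Cftr made up 15.1% ± 3.62 of the summed level of Cftr, Ano1, Best1 and Best2 in untreated KO and 97.3% ± 1.24 in untreated WT, and Ano1 61.9% ± 5.35 and 2.47% ± 1.11. The ratio of Cftr to Ano1 per kilobase was 0.249 ± 0.0797 in untreated KO and 44.9 ± 19.2 in untreated WT, and 0.270 ± 0.153 and 37.0 ± 10.0 with estrogen (SD, n = 3 each).

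**Figure D3:**
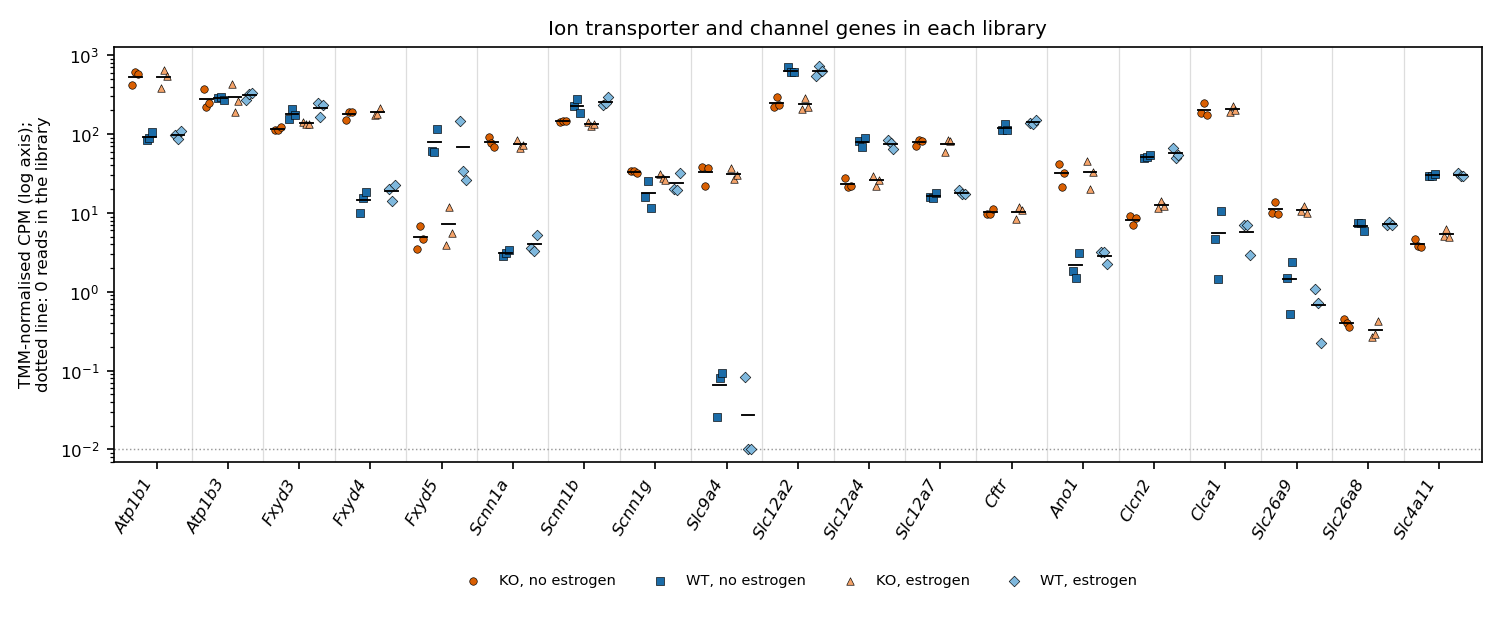
TMM-normalised CPM (y axis, log scale) of 19 members in each of the 12 libraries, with bars at group means and a dotted line for 0 reads. KO and WT points separate in both treatments for Atp1b1, Scnn1a, Cftr and Ano1, and intermix for Atp1b3; for Cftr the KO points lie at 12.0 CPM or less and the WT points at 111 CPM or more.

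Of 8 tested CLC genes, 4 were lower in KO, 1 was higher and 3 were not called in both treatments. Clcn3, an endosomal chloride-proton exchanger, had 67.0, 81.3 and 73.7 CPM in untreated KO, against 122, 135 and 109.9 CPM in untreated WT. With estrogen Clcn3 had 70.9, 87.6 and 84.4 CPM in KO, against 119, 129.8 and 133 CPM in WT. The KO libraries all lay below the WT libraries (log2 fold change -0.73 ± 0.105 and -0.65 ± 0.105, larger edgeR adjusted p = 1.85e-04). Clcn4, also an endosomal exchanger, had 33.9, 31.1 and 34.3 CPM in untreated KO, against 73.0, 73.1 and 67.1 CPM in untreated WT. With estrogen Clcn4 had 38.2, 33.4 and 34.8 CPM in KO, against 68.4, 73.5 and 70.6 CPM in WT, lower in all 6 KO libraries (-1.10 ± 0.0703 and -1.0 ± 0.0700, larger edgeR adjusted p = 3.36e-07). Clcn7, the lysosomal exchanger and partner of Ostm1, was lower as well. It had 21.6, 23.4 and 20.7 CPM in untreated KO, against 45.8, 48.8 and 43.7 CPM in untreated WT. With estrogen Clcn7 had 21, 23.3 and 21.9 CPM in KO, against 42.3, 48.1 and 46.4 CPM in WT. The replicates of each group were close together and the genotypes apart (-1.07 ± 0.0777 and -1.05 ± 0.0775, larger edgeR adjusted p = 4.92e-07). Clcn2, a plasma membrane chloride channel, was lower too. It had 9.01, 6.97 and 8.70 CPM in untreated KO, against 49.6, 51.4 and 53.9 CPM in untreated WT. With estrogen Clcn2 had 11.5, 14.2 and 12.2 CPM in KO, against 66.8, 50.2 and 54.8 CPM in WT. The genotypes were far apart (log2 fold change -2.65 ± 0.135, edgeR adjusted p = 2.78e-08, and -2.18 ± 0.132, edgeR adjusted p = 1.09e-07), and treated KO lay above untreated KO in every library. Clcn5, known from endocytosis in the kidney, did not pass in either treatment, at 12.0 ± 1.11 and 13.5 ± 1.59 CPM without estrogen, and its log2 fold change there was -0.18, or 0.05 under library size alone.

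The CLCA genes encode secreted or shed metalloproteases that modulate calcium-activated chloride currents. Of 8 tested, among them Clca4c-ps, by its symbol a pseudogene, 4 were higher in KO and the other 4 were not called in both treatments. Clca1, which is known to stabilise ANO1 at the surface, had 184, 245 and 176 CPM in untreated KO, against 4.68, 1.47 and 10.5 CPM in untreated WT. With estrogen Clca1 had 191, 229 and 202 CPM in KO, against 7.06, 7.00 and 2.90 CPM in WT. KO libraries were close to each other and WT libraries scattered far below (log2 fold change 5.19 ± 0.617, edgeR adjusted p = 2.07e-05, and 5.20 ± 0.617, edgeR adjusted p = 2.17e-05). The first value was 6.05 without untreated WT replicate 3. Clca3b, a mouse paralog, had 201, 235 and 169.5 CPM in untreated KO, against 54.0, 40.9 and 96.5 CPM in untreated WT. With estrogen Clca3b had 184, 223 and 138 CPM in KO, against 120.0, 34.2 and 14.5 CPM in WT. The genotypes did not overlap, but treated WT replicate 1 came near the lowest KO library. For Clca3b edgeR gave a log2 fold change of 1.66 ± 0.613 untreated (adjusted p = 0.0305) and 1.69 ± 0.614 treated (adjusted p = 0.0287). The second was 2.90 without treated WT replicate 1, and the Clca3b call was lost without untreated WT replicate 1 or 2, untreated KO replicate 1 or 2, treated WT replicate 2 or 3, or treated KO replicate 1 or 2 (edgeR adjusted p = 0.0524 to 0.0997). Clca3a2 had 5.02, 7.41 and 5.08 CPM in untreated KO, against 1.40, 0.809 and 1.81 CPM in untreated WT. With estrogen Clca3a2 had 6.01, 5.72 and 3.83 CPM in KO, against 1.88, 1.62 and 0.665 CPM in WT. It was higher in every KO library (log2 fold change 2.13 ± 0.398 and 1.90 ± 0.394, larger edgeR adjusted p = 0.00120). Clca2, known from stratified epithelia, was higher at 0.708 ± 0.50 and 0.0639 ± 0.0274 CPM without estrogen (larger edgeR adjusted p = 0.00870). Its log2 fold change was 3.43 without estrogen, or 2.82 without untreated KO replicate 1, and 2.65 with it, or 1.77 without treated KO replicate 1.

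Potassium channels set the voltage that drives chloride out of secretory cells. Of 13 tested genes of these channels, 5 were higher in KO and 4 lower. Over all tested genes the shares were 34.1% higher and 30.8% lower. Kcne2, a beta subunit known from the stomach and choroid plexus, was lower at 0.469 ± 0.0667 CPM in untreated KO and 496 ± 119 CPM in untreated WT (larger edgeR adjusted p = 1.05e-08). Kcnk1, a two-pore channel, was lower at 114 ± 21.3 and 707 ± 8.87 CPM (larger edgeR adjusted p = 3.74e-07). Kcne3, the beta subunit of the basolateral channel of colonic crypts, was higher at 44.8 ± 4.08 and 0.335 ± 0.0371 CPM (larger edgeR adjusted p = 4.84e-07), and Kcnn4, the calcium-activated channel KCa3.1, at 12.1 ± 3.77 and 0.105 ± 0.0385 CPM (8.41e-07 likewise). Both Kcne2 and Kcne3 bind the channel encoded by Kcnq1, which was itself lower in KO (42.6 ± 3.79 and 90.0 ± 17.3 CPM; larger edgeR adjusted p = 4.49e-04). Kcnq1 was named for that pairing after its values were seen, as were Nr3c2, Prss8 and Lrrc8a for their roles. Among 18 other anion channels and volume regulators, 7 were higher and 2 lower, beside those same shares over all tested genes. Clic3 (65.7 ± 18.5 and 0.547 ± 0.0863 CPM; larger edgeR adjusted p = 1.79e-07) and Clic6 (21.5 ± 4.05 and 0.674 ± 0.0126 CPM; 2.73e-08 likewise), of the chloride intracellular channel family, were higher. Ttyh1, of a family with large-conductance anion channels (0.723 ± 0.105 and 2.17 ± 0.458 CPM; larger edgeR adjusted p = 0.00126), and Pacc1, the proton-activated chloride channel (10.7 ± 0.734 and 18.4 ± 1.40 CPM; 1.44e-04 likewise), were lower. The volume-regulated channel subunit Lrrc8a did not pass, at 48.4 ± 4.73 and 44.8 ± 2.18 CPM.

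**Figure D4:**
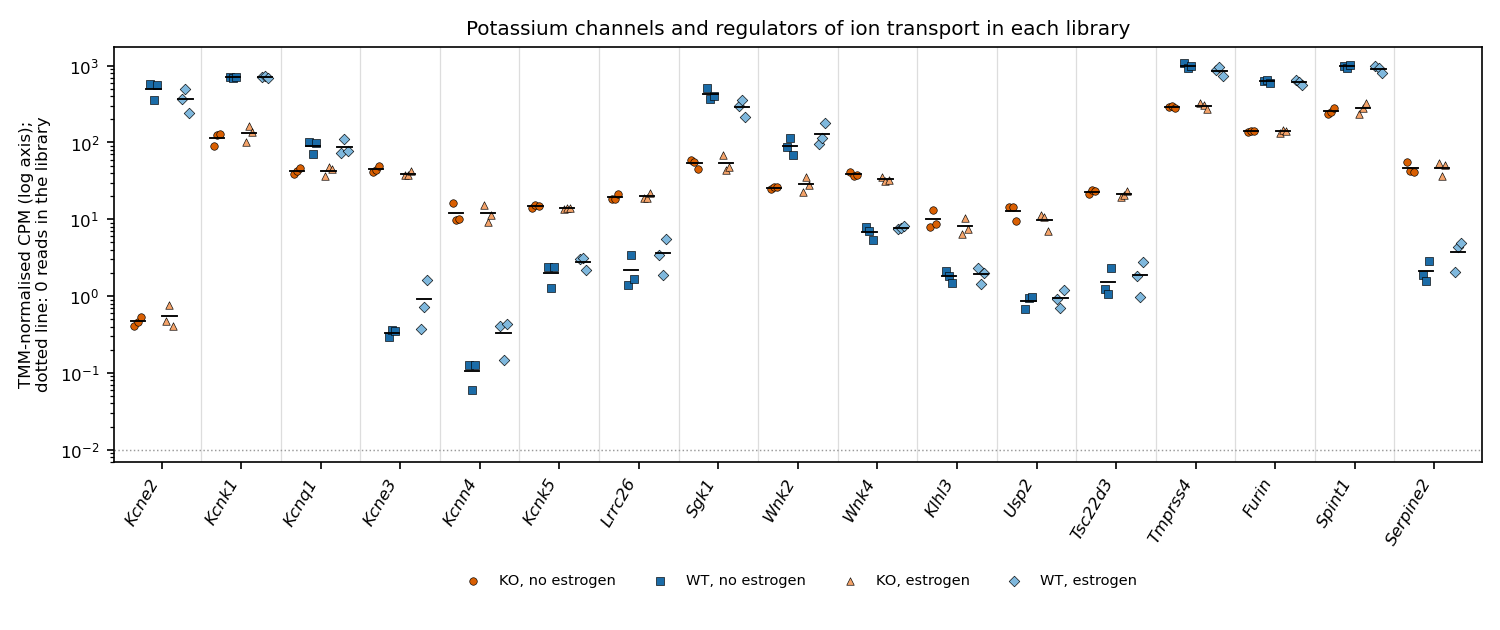
TMM-normalised CPM (y axis, log scale) of potassium channel genes, kinases and other regulators, and ENaC proteases in each of the 12 libraries, with bars at group means. The 17 genes drawn were all called in both treatments, so that their KO and WT points do not overlap says nothing on the lists as a whole. Over all tested genes, KO lay above WT without overlap in 34% and below in 31%. Kcne2 averages 0.469 CPM in untreated KO and 496 CPM in untreated WT.

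By edgeR no member passed the test for estrogen, and DESeq2 called 1 member for it in KO. The submitters' labels state that organoids of neither genotype responded to the hormone. For estrogen against none in WT, edgeR called 0 of 69 tested members and 0 of all genes (0%). At an unadjusted p below 0.05 in WT stood 3 members and 883 genes (5.36%), and DESeq2 called 0 members and 63 genes (0.383%). In KO edgeR likewise called 0 members and 0 genes (0%). At an unadjusted p below 0.05 in KO stood 4 members and 411 genes (2.5%), and DESeq2 called 1 member and 20 genes (0.122%). For the interaction of genotype and estrogen edgeR called 0 members and 0 genes (0%). At an unadjusted p below 0.05 for the interaction stood 4 members and 726 genes (4.41%), and DESeq2 called 1 member and 25 genes (0.165%). Over the 38 members with a mean of at least 10 CPM, the log2 differences of estrogen against none ran from -1.16 (Slc9a4, which rests on 8 reads in treated WT and 18 in untreated WT) to 0.42 (Scnn1g) in WT and from -0.23 (Scnn1g) to 0.62 (Clcn2) in KO, with a median SE of 0.13 in each. Cftr differed by 0.25 ± 0.126 in WT, where it was at 142 ± 9.25 CPM with estrogen and 119 ± 12.3 CPM without, and did not pass.

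The KO call of DESeq2 was Clcn2, at 12.6 ± 1.39 CPM in treated KO and 8.23 ± 1.10 CPM in untreated KO. Its log2 difference was 0.62 ± 0.146 (DESeq2 adjusted p = 0.0227), while edgeR gave 0.62 ± 0.129 (unadjusted p = 5.66e-04 in a model over all genes, edgeR adjusted p = 0.876). The 3 treated KO libraries lay above the 3 untreated ones, and the gene stayed far below WT in either treatment. The interaction call of DESeq2 was Slc4a5, whose treated KO was the lowest and treated WT the highest of the 4 groups (0.138 ± 0.0130 and 1.43 ± 0.358 CPM). The interaction was -2.08 ± 0.465 on the log2 scale (DESeq2 adjusted p = 0.0140), while edgeR gave -2.08 ± 0.378 (unadjusted p = 1.88e-04 in a model over all genes, edgeR adjusted p = 0.871). It rests on 46 reads in treated KO and 90 in untreated KO.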

How the data were processed

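Polyadenylated RNA was sequenced as 150-base read pairs from 12 libraries, with 30 pairs planned for each in units of 1e+06 (TruSeq mRNA, NovaSeq, per the labels' protocols). The deposited files hold raw counts of reads per gene. Per the file headers the authors made them with featureCounts 2.0.0, unstranded, with mates counted separately. The submitters' processing notes name featureCounts 2.0.3, the aligner STAR 2.7.10b, build GRCm39, the trimmer Trim Galore 0.6.6 and FastQC 0.11.7. Their other settings are not given in the sources used here.

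Counts were tested with edgeR 4.0.16 (R 4.3.3), using filterByExpr with a minimum count of 10 and total of 15, TMM scaling, and a robust quasi-likelihood fit of 4 groups sharing a spread. Tests were two-sided, with Benjamini-Hochberg adjustment over all 16465 tested genes and a threshold of 0.05. The SE of a log2 fold change was its size over the root of F. The procedure was also run on simulated counts with few changed genes, balanced in direction, and the same spread for all genes. Most genes were called here, so that run cannot speak for the scaling or the calls. DESeq2 1.42.0, other scalings and filters, replicate blocks and left-out libraries were alternatives. Levels per kilobase used merged exon lengths of RefSeq-linked transcripts in GENCODE M21 (GRCm38), which can differ from the counted models. Folds against a group at 0 used a floor of 3 reads over the group. All 81 members matched the gene table, 56 a promoter.

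The members, lists and rules were chosen with earlier results of these data known. Values in every library are given, per role, for the 2 tested members highest in mean CPM, for up to 3 called members with the largest mean change and at least 1 CPM in a group, and for Cftr, the Scnn1 genes, Atp1b1 and Slc12a2. The values of 8 members are not reported here, although counts over the members include them. Lists outside the set name up to 2 genes higher and 2 lower by adjusted p.

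Treated and untreated KO libraries of the same number deviated together from their group means (correlation across genes 0.80, 0.71 and 0.60), so the numbers pair the KO libraries. That pairing comes from the data, not from the labels.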

Additional observations from a re-analysis of the deposited data

How the results depend on the processing

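Of the 50 members called in both treatments, 44 to 49 kept their call and direction in each alternative run, and none reversed while called. Members called higher in both treatments ranged from 22 to 27 and lower from 21 to 23 when each library was left out in turn. The corresponding counts were 24 to 31 and 22 to 23 without estrogen, and 26 to 33 and 22 to 24 with it. The estrogen and interaction counts of members stayed at 0 in these fits. Over all genes, leaving out treated WT replicate 1 gave 54 calls for estrogen in WT and 6 for the interaction. DESeq2 called 1 member for estrogen in KO, Clcn2, and 1 for the interaction, Slc4a5; the cause was not tested. In at least 1 alternative 7 members turned sign, none of them called there: Slc26a4, Slc4a2, Atp1b3, Clcn1, Clcn5, Clcn6 and Slc9a2. With library size alone, which raises all fold changes, all of them turned without estrogen, on the log2 scale to 0.12 for Slc26a4, 0.019 for Slc4a2, 0.21 for Atp1b3, 0.059 for Clcn1, 0.049 for Clcn5, 0.076 for Clcn6 and 0.015 for Slc9a2. Atp1b3 turned in both treatments, to between 0.00081 and 0.21 without and between 0.024 and 0.16 with estrogen. Leaving out KO libraries gave Slc26a4 -0.24 to 0.027 without estrogen and -0.33 to 0.24 with it, for which the cause was not tested. A filter of at least 1 CPM in 3 libraries left 5 of the 50 untested. With a replicate block shared by all groups, 29 members were higher and 23 lower without estrogen, 33 and 24 with it, and 27 and 23 in both. Under this block Slc4a8 was no longer called in both treatments and Slc9a3 was. WT libraries of the same number did not deviate together (-0.31, -0.27 and -0.61) and share only a number. Treated WT replicates 1, 2 and 3 each correlated best with an untreated WT library of another number, replicates 3, 1 and 2 (0.59, 0.59 and 0.71), a hint from the data that is not in the labels, so the WT estrogen comparison was left unpaired. A replicate block within genotype called 0 members for estrogen in KO, in WT or for the interaction. Over all genes it called 0, 7 and 4. It pairs WT libraries by number, which did not deviate together, so its WT and interaction results cannot decide on a response. Depth limits the genes at under about 10 reads in a group.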
